A study of Mus musculus with 4 samples.

Results

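The transcripts described here encode the NF-kB transcription factors and the proteins that hold them in check. They are 10 genes chosen by name: the 5 subunit genes Nfkb1, Nfkb2, Rel, Rela and Relb, the inhibitor genes Nfkbia, Nfkbib and Nfkbie, the atypical family member Nfkbiz, and Tnfaip3, which encodes the deubiquitinase A20. All 10 were tabulated in both tables of the series, among 15242 genes in one and 12546 in the other, and all 10 passed the filter, a minimum FPKM of 1 in 1 or both libraries of a pair. FPKM is the number of fragments per kilobase of gene, scaled to the size of the library.

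The cells were ILC3s, group 3 innate lymphoid cells, taken from mouse small intestine; they are lymphocytes without rearranged antigen receptors that secrete IL-22 and IL-17. They were sorted by a panel that included live, CD45-low and CD3-negative gates and a gate on cells high for CD90.2. One table sets the genotype Il17d-KO, in which the cytokine gene for IL-17D is inactivated, beside Wild type (WT), both at steady state. The other sets CD93-positive beside CD93-negative ILC3s, both from WT mice and also labelled steady state, sorted after the cell suspension had been held for 12 h without a stimulus; the labels attach this culture step to every library. The sources used here give neither the age nor the number of mice behind a library. Each of the 4 groups was 1 library; no difference below has a replicate check, therefore, and none was tested. The 2 tables hold different gene sets, and levels and differences are taken within a table. The 1 exception is the closing list of genes like Nfkbia, which needs a minimum level in all 4 libraries and combines the differences of both tables.

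NF-kB proteins bind DNA as dimers of the subunits p105/p50 (Nfkb1), p100/p52 (Nfkb2), c-Rel (Rel), p65 (Rela) and RelB (Relb). In resting cells IkB proteins hold the dimers in the cytoplasm. Signals from receptors for IL-1, TNF and microbial products activate the IkB kinase (IKK), which marks IkB for degradation, and the freed dimers switch on genes that include their own inhibitors, Nfkbia and Tnfaip3 being the textbook cases. A slower, noncanonical route through the kinase NIK processes p100 to p52 and frees RelB; it is known for lymphoid tissue development, in which ILC3-like lymphoid tissue inducer (LTi) cells take part.

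Promoters of several of these genes hold the motif that NF-kB is known to bind. RefSeq windows of 300 bases (250 before and 50 after a start, build GRCm38.p6, the assembly of mm10) were searched on both strands for the kappa-B consensus, known by that name. Of the 10 genes, 7 matched a window by symbol, all but Nfkb1, Relb and Nfkbiz, and 5 of these 7 held at least 1 match: Nfkb2, Rel, Nfkbia, Nfkbie and Tnfaip3. Of all 27025 genes with a window, 9.55% held a match. A match is a description of the letters, not evidence of binding. The 4 windows printed belong to the inhibitors that differed most between libraries and to the most abundant subunit gene of the CD93 pair. Capitals mark the matches, and overlapping matches are joined.
Nfkbia, chr12:55492598-55492897, minus strand: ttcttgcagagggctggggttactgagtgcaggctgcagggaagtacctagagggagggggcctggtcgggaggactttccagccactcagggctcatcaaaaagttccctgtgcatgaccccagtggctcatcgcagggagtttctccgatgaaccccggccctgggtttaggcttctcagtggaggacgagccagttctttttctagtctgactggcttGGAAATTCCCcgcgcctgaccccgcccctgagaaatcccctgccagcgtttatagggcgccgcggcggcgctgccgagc
Tnfaip3, chr10:19015361-19015660, minus strand: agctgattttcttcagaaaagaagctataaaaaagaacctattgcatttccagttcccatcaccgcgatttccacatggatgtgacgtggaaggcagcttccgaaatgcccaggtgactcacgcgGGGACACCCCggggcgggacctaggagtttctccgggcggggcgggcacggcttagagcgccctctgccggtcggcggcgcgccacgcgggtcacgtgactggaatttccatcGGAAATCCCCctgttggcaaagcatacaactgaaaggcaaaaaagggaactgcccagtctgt
Nfkbie, chr17:45555450-45555749, plus strand: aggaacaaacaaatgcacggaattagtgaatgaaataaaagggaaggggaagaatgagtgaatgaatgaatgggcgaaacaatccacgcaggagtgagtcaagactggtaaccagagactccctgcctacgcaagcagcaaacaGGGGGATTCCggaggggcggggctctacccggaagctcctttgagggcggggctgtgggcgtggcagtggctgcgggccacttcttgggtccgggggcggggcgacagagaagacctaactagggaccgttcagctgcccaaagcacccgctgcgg
Nfkb2, chr19:46304487-46304786, plus strand: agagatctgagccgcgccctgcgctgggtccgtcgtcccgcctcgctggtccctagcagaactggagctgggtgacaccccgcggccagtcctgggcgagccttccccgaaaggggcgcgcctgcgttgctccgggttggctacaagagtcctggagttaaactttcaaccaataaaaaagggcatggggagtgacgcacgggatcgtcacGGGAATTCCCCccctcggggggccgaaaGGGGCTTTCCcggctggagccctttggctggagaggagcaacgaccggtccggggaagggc

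The match of Nfkbia lay 29 to 20 bases before the start. Tnfaip3 had 1 match from 125 to 116 and another from 12 to 3 bases before it, and its other window, at a second start, had 0. The match of Nfkbie lay 106 to 97 bases upstream. Nfkb2 had overlapping matches from 39 to 29 and 1 from 11 to 2 bases before this start. Its other 2 windows held 2 and 1, but these windows overlap and 1 site is in both. The windows of Rela and Nfkbib held 0, which says only that these letters are not in those bases.

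Libraries differed in depth and scale. The totals behind the FPKM scaling, recovered from the values, were 26087274 and 27002582 in the WT and KO pair and 11712846 and 11790580 in the CD93 pair. Summed over all genes, FPKM came to 510427 (KO) and 575053 (WT), and to 256540 (CD93-positive) and 227212 (CD93-negative), so part of any difference moves with the scaling. The genotype labels were not checked against Il17d, a gene not analysed here. Differences are log2 of (FPKM + 1) over (FPKM + 1), called where they reach 1, that is 2-fold. Their median over all measured genes was 0.01 for KO minus WT and 0.04 for CD93-positive minus CD93-negative; with both libraries of a pair brought to a common sum it was 0.17 and -0.12. Genes higher in CD93-positive ILC3s made up 56.2% of those called, and 36.9% with the common sum. All 12 ILC3 markers, such as Il2rg at 1439 FPKM (KO) and 1442 FPKM (WT), were measured in both pairs. Passing this filter does not identify the cells, as all 9 T cell markers also passed it in the KO and WT pair. The sort gene itself, Cd93, stood at 155.0 FPKM in the positive and 79.9 FPKM in the negative library. It was thus just under the 2-fold limit, and its transcript was well above the filter in the negative library too.

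In every library the feedback inhibitors Nfkbia and Tnfaip3 were among the 3 most abundant of the 10 transcripts per length. In the KO and WT pair Nfkbia had an FPKM of 2024 and 2097, above 99.8% of measured genes in each, and Tnfaip3 had 318 and 327. The next highest was at most 88.8, and the 5 subunit genes lay between 5.18 (Relb in WT) and 46.1 (Rel in WT). In the CD93 pair, CD93-positive ILC3s had Nfkbia at 353, Nfkb2 at 183 and Tnfaip3 at 123, and Rel was lowest at 24.4. CD93-negative ILC3s had Tnfaip3 at 232, Nfkbia at 226 and Nfkb2 at 142, and Rel was again lowest, at 27.8. Below these, neighbours in the order often differed by little: Nfkb1 (62.7) and Relb (64.0) in CD93-positive ILC3s, and Nfkb1 (50.2) and Nfkbib (51.5) in CD93-negative ones.

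**Figure D1:**
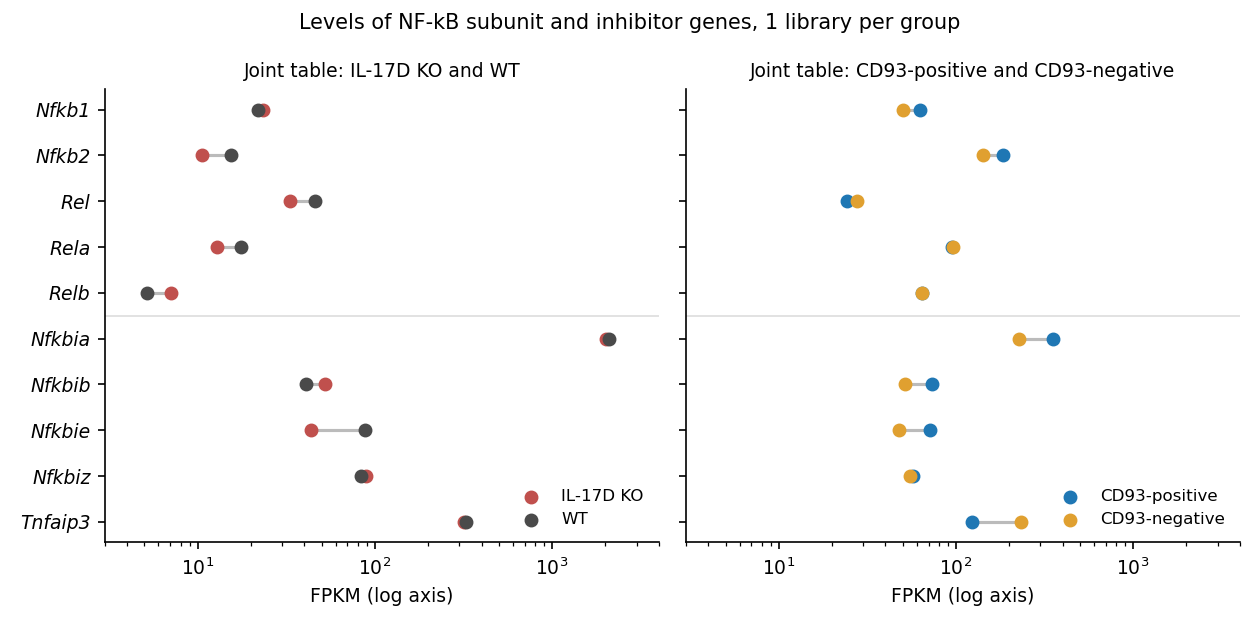
FPKM of the 10 genes on a log axis, 1 point per library, with the KO and WT libraries at left and the CD93 libraries at right; grey lines join the 2 libraries of a pair. Nfkbia and Tnfaip3 lie to the right of the subunits in the KO and WT pair, and Tnfaip3 (123 and 232) has the widest gap of the CD93 pair; the points of Relb (64.0 and 63.9) coincide.

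The first question is how these genes differ between the KO and WT libraries. Only Nfkbie, which encodes IkB-epsilon, an inhibitor known for binding c-Rel and p65 dimers, was 2-fold apart: 1 of the 10 genes, against 29.3% of all 12376 measured genes and 14.9% of the 5559 genes whose mean FPKM lay in the range of the 10. Nfkbie (ENSMUSG00000023947.8 in GENCODE M21, mm10 chr17:45555703-45563169, plus strand) stood at 43.5 FPKM in KO against 88.5 FPKM in WT, 2.03-fold lower. Its difference of -1.01 is just past the limit and did not reach it with a pseudocount of 5 or under any of 3 other scalings (-0.84 with the common sum). Of the 5559 genes in the range, 5.97% lay as far down. The median difference of the 10 genes was -0.05, and 0.13 with the common sum, as the median of all genes moved too.

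The feedback inhibitors were nearly level between the KO and WT libraries on this scale. Nfkbia was 1.04-fold lower in KO (95% counting interval of the FPKM ratio 1.03 to 1.05) and Tnfaip3 1.03-fold lower (1.02 to 1.04); both were higher in KO with a common sum. Counting intervals come from recovered reads, cover counting error only, and compare these libraries, not genotypes. Relative to Nfkbia in the same library, a value that no scaling moves, Tnfaip3 stood at 0.157 in KO and 0.156 in WT. Nfkbiz, whose nuclear product IkB-zeta works as a coactivator of secondary response genes, stood at 88.8 FPKM in KO against 83.1 FPKM in WT. Nfkbib, the gene of IkB-beta, was 1.29-fold higher in KO (1.22 to 1.36; FPKM 52.4 and 40.7). Of the exon bases of Nfkbib, 16.4% overlap Sirt2 and Ccer2 on the opposite strand, and no source used here says that reads were counted by strand, so its value is uncertain.

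Among the subunits, 3 had lower and 2 had higher levels in KO, all under 2-fold. Rel, the c-Rel gene, was the most abundant subunit gene in both libraries, with 33.0 FPKM in KO against 46.1 FPKM in WT, 1.40-fold lower (1.35 to 1.44). Rela, the p65 gene, had 12.8 and 17.5, so the ratio of Rel to Rela was 2.59 in KO and 2.63 in WT. Nfkb1, the p50 gene, had 23.2 and 21.9. The partners of the noncanonical route went in opposite directions. Nfkb2 had 10.6 in KO and 15.4 in WT, and 18.1% of its exon bases overlap Psd and a noncoding RNA on the other strand. Relb, the lowest of the 10, had 7.07 in KO and 5.18 in WT, 1.37-fold higher (1.22 to 1.53) on 742 and 525 reads. Whole reads were not recovered for Nfkb2, Rela and Nfkbie in this pair, so their folds have no interval.

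**Figure D2:**
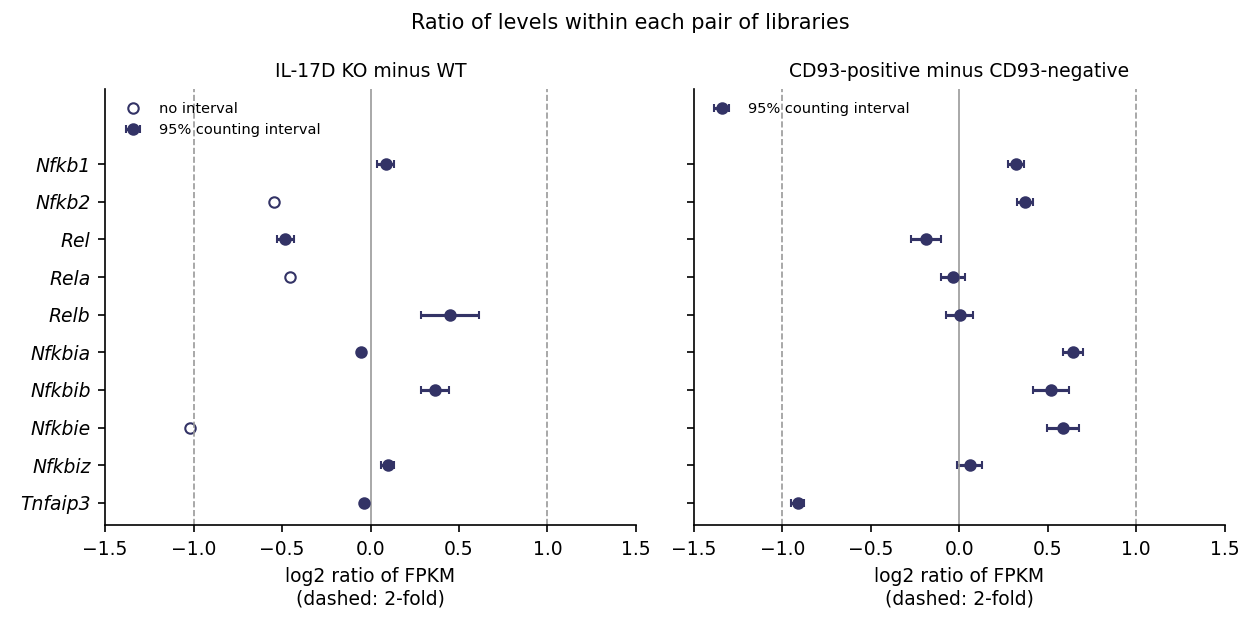
Log2 ratio of FPKM, without a pseudocount, for KO over WT at left and CD93-positive over CD93-negative at right; bars are 95% counting intervals, open points have none, and dashed lines mark 2-fold. Nfkbie lies at the lower dashed line at left; at right Nfkbia, Nfkbie and Nfkbib lie to the right of 0 and Tnfaip3, at 1.88-fold lower, near the lower dashed line.

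Markers of other cells also differed in this pair, in which 29.3% of all measured genes were 2-fold apart. Of 9 T cell markers 7 were higher in KO by 2-fold or more, and their summed FPKM was 284 against 137 in WT. Of 5 measured epithelial markers 4 were higher (176 and 48.8 summed over those tabulated; Cdh1 was at 0 in KO). Of 4 measured B and plasma cell markers 2 were higher, Ighm (58.6 in KO and 13.8 in WT) and Cd79a (2.01 and 0.0789, named after its values were seen), and 2 were under 2-fold, Jchain (148 and 84.5) and Cd79b (31.6 and 30.4). Of 5 tabulated myeloid markers 3 were higher and 2 lower (59.2 and 17.4 summed). The other genes of that list of 10, Adgre1, Csf1r, Fcgr1, Itgam and Itgax, were not tabulated in this pair. All 7 pancreatic enzyme markers were higher, with 1089 in KO and 0.235 in WT, where 6 of them were at 0. Of 8 markers of NCR-positive ILC3s, ILC1s and NK cells 3 were higher (1156 and 760), and of 6 LTi markers 0 were apart (169 and 210). Most of the LTi sum was Tnfsf11 (104.5 in KO and 160.5 in WT), while the median difference of the LTi markers was 0.27. Of 10 immediate early and stress genes 3 were lower in KO (2010 and 1967). The share apart was 30% for these and 37.5% for the NCR-positive list, not far from that of all genes. The ILC3 markers summed to 14446 and 18760, most of it Il22 (11771 and 16102), with 0 apart and a median difference of -0.11. The 10 reference genes had a median difference of -0.09 with 0 apart, and ran from -0.825 (Hprt) to 0.893 (Gapdh). As plain ratios without the pseudocount, Gapdh was 2.16-fold and Tbp 2.14-fold higher in KO, and Hprt 1.79-fold lower. The part of these differences in those of the NF-kB genes was not tested. In such bulk samples fewer cells of a type and less RNA per cell cannot be told apart.

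The second question is how these genes differ between WT ILC3s with and without CD93. The inhibitors split: the 3 IkB genes Nfkbia, Nfkbie and Nfkbib were 1.43- to 1.56-fold higher in CD93-positive ILC3s, and Tnfaip3 was 1.88-fold lower. None reached 2-fold: 0 of the 10 genes were called, against 4.43% of all 10117 measured genes and 4.96% of the 1896 genes in the range of their mean FPKM. With the common sum Tnfaip3 was called, at -1.08, where 4.63% of all genes were. The median difference of the 10 was 0.19, and 0.01 with the common sum.

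Tnfaip3 encodes A20, which removes ubiquitin chains upstream of IKK and so ends signalling from TNF and IL-1 receptors. Its gene lies at mm10 chr10:19000910-19015657, minus strand, and its FPKM was 123 with CD93 and 232 without, from 10403 and 19736 reads. The ratio was 1.88-fold lower in CD93-positive ILC3s (1.84 to 1.93). Of the 1896 genes in the range, 2.06% lay as far down, and the difference ran from -1.08 to -0.89 over 5 other pseudocounts and scalings.

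Nfkbia encodes IkB-alpha, a rapidly induced inhibitor. It lies at mm10 chr12:55489410-55492647, minus strand, and stood at 353 FPKM with CD93 and 226 FPKM without, 1.56-fold higher (1.503 to 1.624). Nfkbie had 71.7 and 47.8, 1.501-fold higher (1.41 to 1.60), and Nfkbib 73.6 and 51.5, 1.43-fold higher (1.33 to 1.54). All 3 had higher values in CD93-positive ILC3s under every pseudocount and scaling tried, the smallest difference being 0.34 for Nfkbib. Their sizes are modest beside some other genes of this pair: the 10 reference genes had a median difference of 0.36, from -0.10 (Tbp) to 0.98 (Actb). The genes in the range had a median of 0.11, and 8.12% of them lay as far up as Nfkbia. Nfkbiz had 57.4 and 55.1, and its direction turned with the common sum.

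Set against Nfkbia within each library, the split does not depend on the scaling. The FPKM of Tnfaip3 was 0.348 times that of Nfkbia in the positive and 1.02 times in the negative library, a 2.94-fold lower ratio (2.82 to 3.08). Nfkbie kept nearly the same proportion to Nfkbia, 0.203 and 0.211, with an interval of the quotient of 0.89 to 1.03. Nfkbib stood at 0.209 and 0.228, and Nfkbiz at 0.163 and 0.244, a 1.5-fold lower ratio (1.41 to 1.59). The Tnfaip3 and Nfkbia ratio was singled out after the values had been seen.

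**Figure D3:**
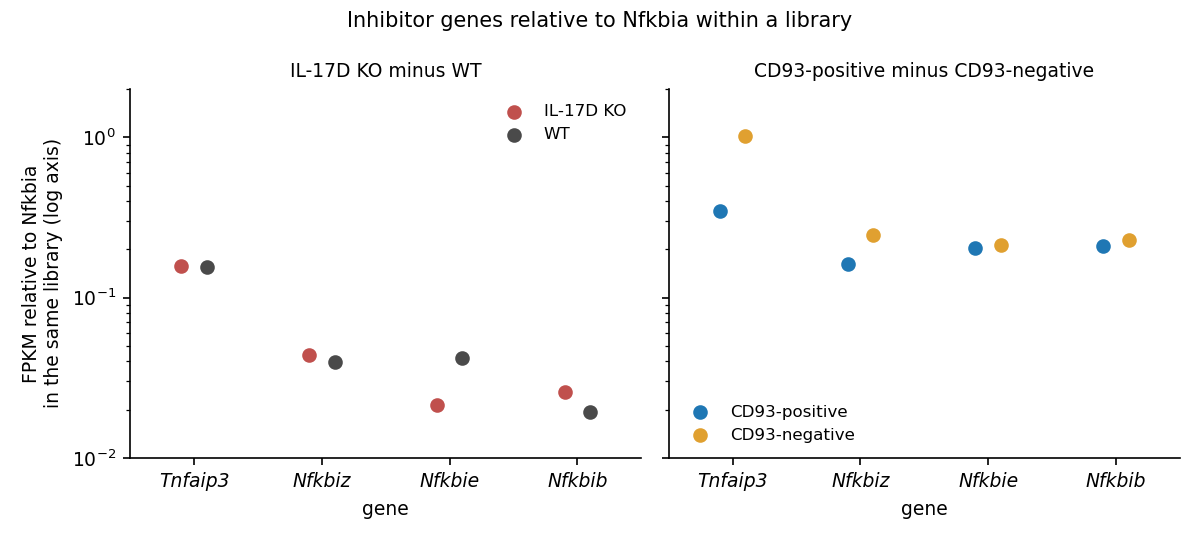
FPKM of Tnfaip3, Nfkbiz, Nfkbie and Nfkbib divided by that of Nfkbia in the same library, on a log axis, with KO and WT at left and CD93-positive and CD93-negative at right. Tnfaip3 is at 0.157 and 0.156 at left, and at 0.348 and 1.02 at right.

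Each of the 5 subunit genes differed by under 1.3-fold. Nfkb2, the most abundant of them, stood at 183 FPKM with CD93 and 142 FPKM without, 1.29-fold higher (1.26 to 1.33), and Nfkb1 was 1.25-fold higher (1.21 to 1.29; 62.7 and 50.2). Both precursors of DNA-binding partners were thus higher to a like degree, with Nfkb2 over Nfkb1 at 2.92 and 2.82. Their differences, 0.314 for Nfkb1 and 0.369 for Nfkb2, were near the reference gene median of 0.358. The reference genes ran from -0.101 (Tbp) to 0.983 (Actb), however, and the genes in the range of the 10 had a median of 0.106. Of the genes in the range, 27.2% lay as far up as Nfkb1 and 21.5% as far up as Nfkb2. With the common sum the differences of Nfkb1 and Nfkb2 were 0.142 and 0.195. The subunits with activation domains were level or lower. Rela had 94.5 and 96.8, with an interval of the ratio of 0.93 to 1.02. Relb had 64.0 and 63.9, with an interval of 0.95 to 1.05 and a sign that turned with each of 3 other scalings. Rel had 24.4 and 27.8, 1.14-fold lower (1.08 to 1.21).

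As shares of the summed subunit FPKM, Nfkb2 made up 42.7% with CD93 and 37.2% without, Rela 22.0% and 25.5%, and Rel 5.68% and 7.31%. In the KO and WT pair Rel led, with 38.1% in KO and 43.5% in WT, and Nfkb1 followed with 26.8% and 20.6%.

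**Figure D4:**
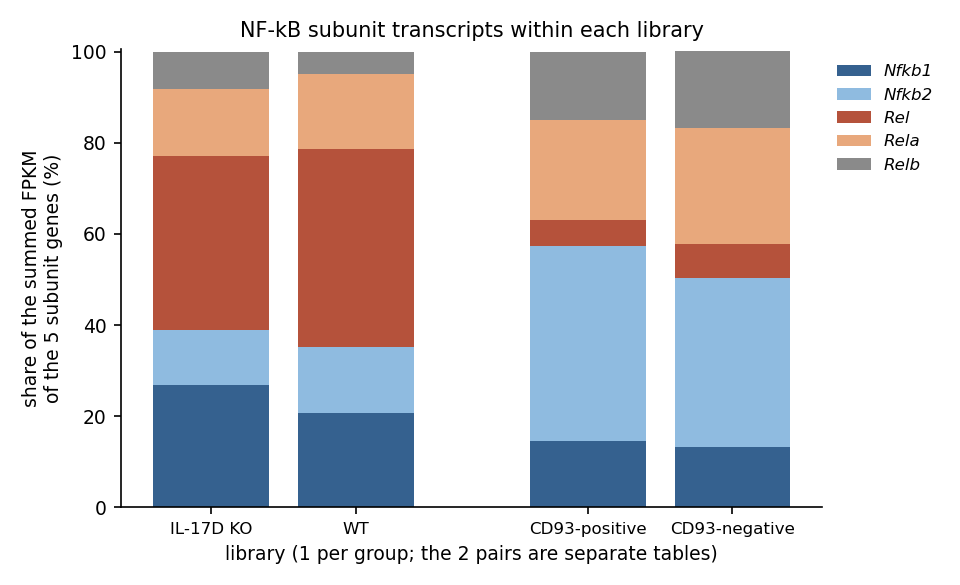
Share of each subunit gene in the summed FPKM of the 5 subunit genes, in percent, 1 bar per library and the 2 tables set apart. Rel takes 38.1% and 43.5% of the KO and WT bars, and Nfkb2 42.7% and 37.2% of the CD93-positive and CD93-negative bars.

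Marker lists of ILC3 subsets differed strongly in the CD93 pair, in which 4.43% of all measured genes were 2-fold apart. All 6 LTi markers were higher by 2-fold or more with CD93, with a summed FPKM of 374 and 74.9, and 7 of 8 markers of NCR-positive ILC3s, ILC1s and NK cells were lower (76.96 and 245.7). Of 12 ILC3 markers 2 were higher (9735 and 2870, most of it Il22 with 7934 and 1655). Of 4 measured T cell markers 2 were lower, with sums of 3.10 and 11.2 over those tabulated; of 4 epithelial ones 1 was lower (20.4 and 37.2). Of 10 immediate early and stress genes 2 were lower and the median was -0.64 (848 and 961 summed). Of 5 measured myeloid markers 1 was higher (44.5 and 38.7 summed over those tabulated). Of the single B cell marker measured, Cd79b (2.27 and 4.98), and the 6 pancreatic ones (146 and 221) 0 were called. None of the tabulated markers of these lists was at 0 in either library. The part of subset makeup, of stress genes or of other cells in the difference of Tnfaip3 was not tested.

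The rest of the pathway was read from 3 lists of 85 genes. Of 34 genes of IKK, TAK1 and adaptors, 0 were 2-fold apart in the CD93 pair (median 0.04), where 4.43% of all genes were, and the 3 most abundant were Traf1 (FPKM 178 and 153), an adaptor of TNF receptors, Irak2 (119 and 154), a kinase below IL-1 receptors, and Tab2 (81.2 and 86.6), a partner of TAK1. In the KO and WT pair 6 of 31 measured were higher and 1 lower, 22.6% against 29.3% of all measured genes. The higher ones were Rbck1, a subunit of the linear ubiquitin ligase (8.78 in KO and 1.20 in WT, 7.32-fold, 6.15 to 8.77), Traf2 (17.1 and 5.21), Ripk2 (10.7 and 3.42), Tradd (8.02 and 2.49), Irak3 (21.6 and 8.39) and Tab3 (2.69 and 0.508). Traf5 was lower, with 1 read in KO and 399 in WT, a ratio of 413-fold (73.7 to 16353). The most abundant of the list were under 2-fold: Map3k8 (88.6 and 85.3), Birc3 (55.8 and 33.1) and Tab2 (28.5 and 36.5). The 3 genes of the IKK complex itself, named for their role after the values had been seen, were all lower in KO, Chuk with 5.98 and 12.4, Ikbkb with 2.88 and 4.34 and Ikbkg with 4.04 and 5.85; none was called, although Chuk was 2.08-fold apart (1.91 to 2.26) as a plain ratio without the pseudocount.

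Of the other IkB proteins and brakes, 0 of 15 were apart in the CD93 pair (median -0.11; 4.43% of all genes). The most abundant were Zc3h12a, which encodes the RNase Regnase-1 (106 and 66.8; 1.58-fold higher, 1.503 to 1.672), Tnip1, a partner of A20 (85.3 and 70.3), and Bcl3, a nuclear IkB protein (61.4 and 51.8). These 3 genes had higher values with CD93, but the median of -0.11 means that most of the 15 had lower ones, as Tnfaip3 had. In the KO and WT pair 1 of 13 was apart, 7.69% against 29.3% of all genes: Tnip2, also a partner of A20, with 11.3 in KO and 1.499 in WT (7.55-fold higher, 6.16 to 9.35). The most abundant there were Tax1bp1 (67.6 and 61.4), an adaptor of A20, Tnip1 (34.9 and 29.2) and Nfkbid (18.9 and 28.5), a nuclear IkB protein.

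Known target genes of NF-kB went both ways in each pair, with medians of 0.05 for KO and 0.04 for CD93-positive ILC3s. In the CD93 pair 4 of 32 were called higher and 2 lower, 18.8% against the 4.43% of all genes, and 3 higher and 3 lower with the common sum, where Csf2 was at 0.98 and Bcl2a1d, named after its values were seen, at -1.06. The cytokine genes Tnfsf11 (291 and 61.5; 4.74-fold, 4.49 to 5.004), Tnf (59.1 and 20.2; 2.92-fold, 2.603 to 3.286), Lta (18.3 and 6.81) and Csf2 (214 and 95.9) were higher. The chemokine genes Ccl22 (7.16 and 19.6) and Cxcl1 (3.69 and 9.91) were lower, and Il2ra, the third most abundant of the list, had 187 and 113. Tnfsf11 is also on the LTi marker list and Il2ra on the ILC3 marker list, so the target counts are not separate from the marker counts. In the KO and WT pair 4 of 30 were higher and 2 lower, 20% of them against the 29.3% of all genes. Lta (20.9 and 5.74), Ebi3 (8.32 and 3.64) and Il1b (2.95 and 0.784) were higher, as was Ccl22, by at least 51.5-fold, with 160 reads in KO against 0 in WT. Ccl20, with 0 reads in KO, had 186 in WT (lower by at least 64.2-fold) and Il6 had 0 and 105 (lower by at least 36.2-fold); these 3 bounds are set against 3 reads in the library at 0 and leave out the counting error of the other library, whereas the exact intervals begin at 41.4, 51.7 and 28.95 for Ccl22, Ccl20 and Il6. The 3 most abundant, Csf2 (1146 and 973), Cd83 (1128 and 826) and Ltb (624 and 599), were under 2-fold.

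**Figure D5:**
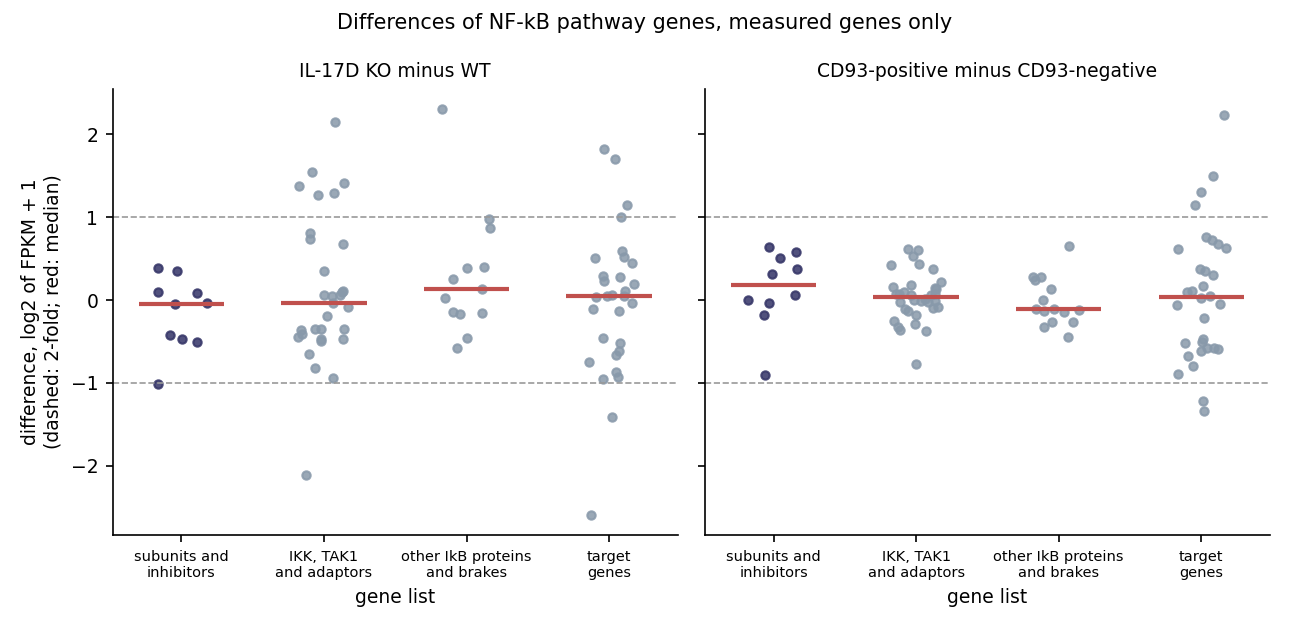
Difference in log2 of FPKM + 1 for each measured gene of the 10 subunit and inhibitor genes and the 3 pathway lists, KO minus WT at left and CD93-positive minus CD93-negative at right; dashed lines mark 2-fold and red bars the medians. At right the points of the first 3 lists stay inside the dashed lines, and 6 target genes lie outside them.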

How the data were processed

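The deposited files, a table for each of the 4 libraries and a joint table for each of the 2 pairs, hold FPKM computed by the authors; joint and single values were equal. Per the submitters' processing notes, Bowtie2, featureCounts, Subread, edgeR and DESeq2 were used with mm10; their settings and versions, the annotation and the use of strand are not stated in these sources. One marker gene is not reported here. The 10 genes and all lists were chosen with earlier results of these data known.

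Differences were log2 of FPKM ratios with a pseudocount of 1, for genes reaching an FPKM of 1 in 1 or both libraries, and were called at 2-fold. A pseudocount understates differences of low genes. Multiplied by union exon lengths (GENCODE M21), FPKM fell on whole multiples of 1 step, within 0.02 reads, for 91.9% to 98.2% of values above 0, which gave reads for 95% exact (Clopper-Pearson) intervals; intervals of a quotient of 2 ratios use the normal approximation on the log scale. PCR reads lacking molecular identifiers are no independent molecules, and intervals and bounds therefore cover counting error only. With 1 library per group no p-value was computed. Named genes were the 10 genes, list genes at least 2-fold apart, and the 3 most abundant of each pathway list. Functions were tested on simulated data. Python 3.11.15, pandas 2.3.3, NumPy 2.4.6, SciPy 1.17.1 and matplotlib 3.10.9 were used.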

Additional observations from a re-analysis of the deposited data

How the results depend on the processing

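With 1 library per group, depth limits only the counting error, and no setting supplies the missing replicates. No paired analysis was possible because each group has 1 library and no result comes from a test. Nfkbie, the 1 gene of the 10 called in KO and WT, gave 0 calls with a pseudocount of 5, with a common sum (also without mitochondrial and ribosomal protein genes), with a median ratio of 1 and at 3-fold. In the CD93 pair 1 of the 10, Tnfaip3, was called with either common sum, where 4.63% and 4.65% of all genes were. At 1.5-fold, a limit added after the data were seen, 2 were called (Nfkbia and Tnfaip3), against 14.5% of all genes. In KO and WT 1 of the 10 was called at that limit, against 49.4% of all genes. The median of the 10 moved with the 2 common sums to 0.127 and 0.105 for KO and to 0.014 and 0.013 for CD93-positive ILC3s. The sign of Nfkbia and Tnfaip3 in the first pair and of Relb and Nfkbiz in the second turned under some scaling; the other 8 genes of each pair kept theirs.

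For IKK and adaptors the KO count of 7 was 2 with a pseudocount of 5 and 2 at 3-fold (6.45% each). Their CD93 count of 0 was 1 with a pseudocount of 0.1 (2.94%). For other brakes the KO count of 1 was 3 with a pseudocount of 0.1 (23.1%) and 2 with either common sum (15.4%). For targets the KO count of 6 was 2 with a pseudocount of 5 (6.67%), 3 with an FPKM of at least 5 (12%) and 3 at 3-fold (10%). Their CD93 count of 6 was 1 at 3-fold (3.12%). All genes apart numbered 3627 for KO (29.3%). They numbered 821 with a pseudocount of 5 (6.63%), 1519 with an FPKM of at least 5 (21.5%), 1556 at 3-fold (12.6%) and 6119 at 1.5-fold (49.4%). Within the range of the 10 genes 831 were apart at 2-fold (14.9%). The KO share was 37.5% with a pseudocount of 0.1, 30.2% and 30% with the 2 common sums, and 29.3% with a median ratio of 1. For CD93 all genes apart numbered 448 (4.43%), and 783 with a pseudocount of 0.1 (7.74%), 169 with 5 (1.67%) and 110 at 3-fold (1.09%). At 1.5-fold there were 1471 (14.5%). Within the range of the 10 genes 94 were apart at 2-fold (4.96%). The range, like the 1.5-fold limit, was added after the data were seen.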

Other observations

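The summed FPKM of Nfkbia, Nfkbib and Nfkbie was 24.5 times that of the 5 subunit genes in KO and 20.98 times in WT, of which Nfkbia alone made 95.5% and 94.2% of the inhibitor sum. In CD93-positive ILC3s the inhibitors stood at 1.16 times and in CD93-negative ILC3s at 0.855 times the subunits, with Nfkbia at 70.8% and 69.5%. With Tnfaip3 added to the inhibitors the quotients were 28.1 and 24.1 in KO and WT and 1.45 and 1.46 with and without CD93, so the CD93 difference rests on which inhibitors are counted. These quotients are free of the scaling between libraries, but with 1 library per group they were not tested.

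The genes whose 2 differences lay closest to those of Nfkbia (-0.05 for KO, 0.64 for CD93-positive ILC3s), among 812 with an FPKM of at least 20 in all 4 libraries, were Rgcc (-0.08 and 0.63), Tmsb4x (-0.05 and 0.68), Surf4 (-0.03 and 0.59), Prelid2 (-0.07 and 0.72) and Babam1 (0.01 and 0.55). Their Euclidean distances ran from 0.03 to 0.11, over 2 values per gene, so they describe a like pattern in these libraries only.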
